A study of Mus musculus with 6 samples.

Results

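*Gdf15* encodes growth differentiation factor 15, a secreted stress cytokine and a distant member of the transforming growth factor beta (TGF-β) superfamily. The gene was taken from the deposited expression table by its symbol, as 1 of 54532 gene rows, and it was chosen by its FPKM values in these same 6 samples, as the strongest rise after CTX. Its levels are therefore given as a description, with no test. RNA-seq had been run on granulosa cells (GCs), the follicle cells that surround the oocyte, of ICR mice. The mice were 3-week-old females, and all of them had received pregnant mare's serum gonadotropin to start follicular development. The PBS group (3 samples) then had a single intraperitoneal injection of phosphate buffered saline, and the CTX group (3 samples) one of cyclophosphamide, an alkylating drug that damages DNA. Cells were taken 6 h later, and each sample pooled the GCs of 3 mice, so that the spread among samples is that between pools and not between animals. The design asks which genes changed in GCs at the time when the drug was causing apoptosis.

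GDF15 is made as a precursor, is cut by furin-like proteases and is released into the circulation, where it is best known for reaching the receptor GFRAL, with its partner RET, in the hindbrain and lowering food intake. Its gene is switched on in many tissues by cell damage. Known routes to it are p53, the factor stabilised by DNA damage, and the integrated stress response, in which kinases that sense misfolded protein, missing amino acids or low heme lead to the factors ATF4 and CHOP (*Ddit3*). The early growth response factor EGR1 is another factor reported to act on the gene.

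Rebuilt from the values, the reads on genes numbered between 16005869 and 17790353 for PBS libraries and between 17727770 and 18455011 for CTX libraries. Levels are in FPKM, fragments per kilobase of gene scaled to the depth of the library. The 7 granulosa markers were expressed in all samples, with a summed level, most of it *Inha*, between 10594 and 11874 FPKM after PBS and between 9710 and 10224 FPKM after CTX. None of the 7 was called changed, but with 0.961% of all tested genes called this says nothing particular to them. A lower mean after CTX was seen for 6. For 5 every CTX sample was below every PBS sample, against 14.1% of all tested genes. *Foxl2*, a factor of GC identity, was at 188 ± 4.88 FPKM with PBS and 110 ± 34.2 FPKM with CTX, and *Fshr*, the follicle stimulating hormone receptor, at 91.8 ± 3.04 and 64.4 ± 19.4 FPKM (SD, n = 3). Their part in the level of *Gdf15* was not tested. CTX replicate 2 stood apart from the other CTX samples. The mean chi-square per gene between the reads of a pair, which grows as the pair differs beyond sampling noise, was 80.9 between CTX replicates 1 and 2 and 41.4 between CTX replicates 2 and 3, against 16.6 between CTX replicates 1 and 3 and at most 7.19 between PBS samples. In that sample *Cyp19a1* (aromatase) was at 6.61 FPKM, below the 47.6 and 32.5 FPKM of CTX replicates 1 and 3 and the PBS mean of 60.5 FPKM, and *Lhcgr* (the luteinising hormone receptor) was at 1.48 FPKM, below 129 and 53.1 FPKM. The fold change of *Gdf15*, the counts of called targets and the differences carried by that sample are therefore also given without it.

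*Gdf15* was low in all PBS samples and much higher in all CTX samples. Its level was 0.545, 0.707 and 0.733 FPKM in PBS replicates 1, 2 and 3, from 18, 24 and 22 reads. It was 11.5, 22.6 and 18.8 FPKM in CTX replicates 1, 2 and 3, from 387, 744 and 624 reads. Every CTX sample was above every PBS sample, and the lowest CTX level was 15.7 times the highest PBS level. The mean was 0.662 ± 0.102 FPKM (SD, n = 3) with PBS and 17.7 ± 5.64 FPKM (SD, n = 3) with CTX, a 26.7-fold difference of the means. On the log2(FPKM + 0.1) scale, on which all fold changes of the fit are given, the difference was 4.50 (SE 0.26). This scale understates the change of weakly expressed genes. Without CTX replicate 2 the CTX mean was 15.2 FPKM, which was 22.9 times the PBS mean, and the difference was 4.29.

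**Figure D1:**
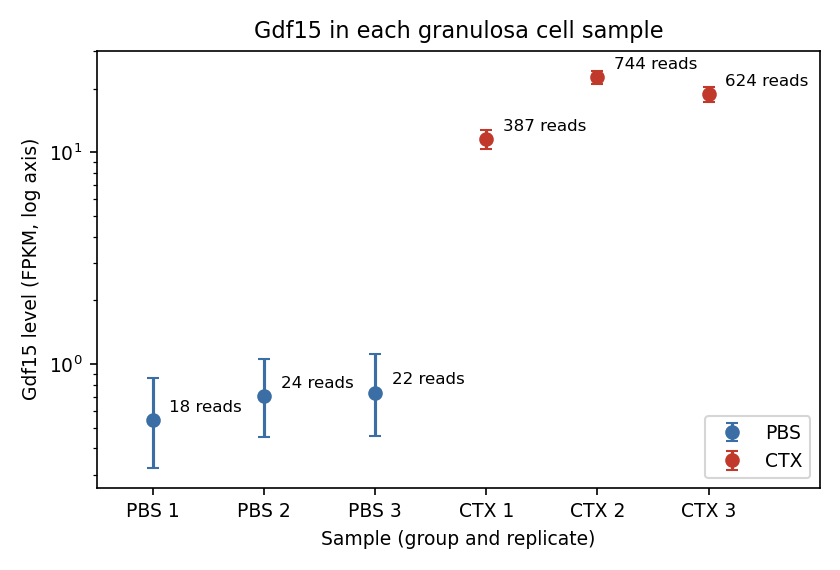
Level of *Gdf15* in FPKM (log axis) in each of the 6 samples, with the rebuilt reads beside each point and bars for the 95% Poisson interval of those reads. The 3 PBS samples lie between 0.545 and 0.733 FPKM with overlapping intervals, and the 3 CTX samples lie between 11.5 and 22.6 FPKM with intervals that do not overlap each other.

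The reads behind these levels set how far the samples could be told apart. The exact 95% Poisson intervals, which cover counting error only, were 0.323 to 0.862, 0.453 to 1.05 and 0.460 to 1.11 FPKM in the PBS samples, so that no difference among them was detectable at this depth. In the CTX samples the intervals were 10.4 to 12.7, 21.0 to 24.3 and 17.4 to 20.3 FPKM. These do not overlap, and the CTX samples differed by more than counting error, with replicate 2 highest and replicate 1 lowest. The coefficient of variation was 32.0% among the CTX samples and 15.4% among the PBS samples.

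The place of *Gdf15* among all expressed genes moved in the same way. Among the 14463 genes with a mean of at least 0.5 FPKM, *Gdf15* ranked 13878, 13540 and 13270 by level in the PBS samples. It ranked 4784, 2553 and 3104 in CTX replicates 1, 2 and 3. It had the largest fitted rise of these genes, followed by *Pmaip1* at 3.99. That order was not the same in all alternatives, and the cause was not tested. *Gdf15* ranked 15 with a pseudocount of 0.01, where *Gm37419* had the largest rise. It ranked 3 when the rebuilt reads were weighted by their precision (voom), with *Svop* first, and 10 with sample weights, with *Alb* first. It ranked 2 when PBS replicate 1, PBS replicate 2, CTX replicate 2 or CTX replicate 3 was left out. The first genes were then *Gm25193*, *Gm37419*, *Gm25911* and *n-R5s171*, in that order. By the plain ratio of the group means over the 14451 tested genes with a PBS mean above 0, 3 genes exceeded it (12 more tested genes were listed at 0 in all PBS samples and have no ratio), namely *Svop* (57.3-fold, on 0 to 4 reads in the PBS samples), *Fabp1* (42.5-fold, on 0 or 1 PBS reads and from 0 to 47 CTX reads) and *Pmaip1* (28.4-fold, on 5 or 6 PBS reads). These 3 were named after their values were seen.

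In the GRCm38 annotation *Gdf15* lies on the minus strand at chr8:70629393-70632456. GENCODE lists 2 transcripts, a form with 2 exons (1545 bases) and a form with 3 exons (1380 bases). Both have the same coding exons and encode 303 residues, so they differ in the 5′ untranslated part and in where they start, at position 70632095 for the form with 2 exons (the inner start) and at 70632456 for the form with 3 (the outer start). The table counts the gene as a whole, with an exon length of 1852 bases, and the values do not tell which start was used. RefSeq (GRCm38.p6) gives promoters at both starts. The 250 bases before the outer start, chr8:70632457-70632706 on the minus strand, are shown because the rise of the gene makes its promoter of interest, and the capitals mark the last 14 bases, which RefSeq places inside the gene:
Gdf15 outer promoter: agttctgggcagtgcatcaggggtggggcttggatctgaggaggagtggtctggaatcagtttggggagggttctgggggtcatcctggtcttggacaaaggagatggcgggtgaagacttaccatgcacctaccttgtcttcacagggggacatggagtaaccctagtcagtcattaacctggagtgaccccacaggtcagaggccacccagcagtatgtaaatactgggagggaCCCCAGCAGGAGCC

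Its GC content was 56.4%. Both *Gdf15* promoters, 250 bases before to 50 after the start, were searched on both strands for 8 motifs, and the share of the 32851 RefSeq mouse promoters of this length that hold each was taken as the background. The motifs were the TATA box TATAAA (13.6% of promoters), the cyclic AMP response element TGACGTCA (1.79%), the C/EBP-ATF composite element TGATGCAA (0.895%), the AP-1 site TGANTCA (7.81%), the EGR site GCGNGGGCG (5.55%), the GC box GGGCGG (35.7%), the E-box CACGTG (7.15%) and the p53 half-site (8.36%). EGR and GC box matches can share bases. The outer promoter held no match. The inner promoter held a single match, an E-box at chr8:70632173-70632178, from -83 to -78 counted from the start base as 0, and it is shown with 8 bases on each side and the motif in capitals:
Gdf15 inner promoter, E-box: gggcagggCACGTGtgagcatc

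A match is a run of letters and not a bound site, and the absence of one says only that these letters are not in these windows. For the known p53 target genes that rose (named further on), 12 of 17 were found among the RefSeq promoters, with 16 promoters in all. The background share of 8.36% counts promoters and not genes. Of the 12 genes, 3 held a p53 half-site in some promoter. Those of *Cdkn1a*, *Ccng1* and *Aen* are shown so that they can be set beside the *Gdf15* promoter, with the half-site in capitals:
Cdkn1a, chr17:29090906-29090915: ctgggtggGGACTAGCTTtctggcct
Cdkn1a, chr17:29090928-29090937: gccttcagGAACATGTCTtgacatgt
Ccng1, chr11:40755462-40755471: acctgcccGGGCAAGCCTtggcactg
Aen, chr7:78895937-78895946: ccgaagccGGGCTTGTCCgggcaagg

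A single limma fit was run over the 14463 genes, *Gdf15* among them. A gene was called when its Benjamini-Hochberg adjusted p was below 0.05 and its change was over 2-fold. This called 116 genes higher after CTX (0.802% of those tested) and 23 lower (0.159%), 139 in all (0.961%). The 116 include *Gdf15*, which was chosen for its rise, so its own call is not read as a test. In 15.0% of the tested genes every CTX sample was above every PBS sample, and in 14.1% every CTX sample was below. The median log2 difference of all tested genes was -0.01.

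Among the ligands of the TGF-β superfamily *Gdf15* moved up the order of levels. FPKM is per length and so allows levels of different genes to be set side by side. Of 33 ligands in the table, *Gdf15* included, *Gdf15* ranked 13 by its PBS mean and 7 by its CTX mean. By sample it ranked 13, 14 and 13 in the PBS samples and 8, 9 and 7 in CTX replicates 1, 2 and 3. Next to it in the PBS order stood *Bmp6* at 2.95 ± 0.104 FPKM (SD, n = 3), above the *Gdf15* range, and *Tgfb2* at 0.602 ± 0.213 FPKM (SD, n = 3), which overlapped it. Next to it in the CTX order stood *Gdf9*, an oocyte ligand, at 20.1 ± 6.37 FPKM (SD, n = 3) and *Tgfb3* at 17.5 ± 4.70 FPKM (SD, n = 3), and neither differed from *Gdf15* by more than the spread between samples. Far above all of these stood *Inha*, the inhibin alpha subunit and a main product of GCs, at 9606 ± 689 FPKM with PBS and 8889 ± 314 FPKM with CTX (SD, n = 3).

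None of the other ligands passed the test. Of the 32, 13 reached the level for testing and 0 were called in either direction, against 0.961% of all tested genes. A list of this size would seldom hold a called gene, so the 0 says nothing particular to the ligands. Of the 13, 7 had a positive and 6 a negative difference. The differences ran from -1.03 to 1.03 on the log2 scale with a median of 0.10. All CTX samples were above all PBS samples for 2 of the 13 and below for 5, against 15.0% and 14.1% of all tested genes.

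The receptor of GDF15 was not detectable at this depth. *Gfral* was listed at 0 in all 6 samples, and a count of 0 allows up to 0.0787 to 0.0890 FPKM, depending on the sample. *Ret*, its signalling partner, had between 0 and 6 reads and at most 0.0495 FPKM. The proteases that can cut the precursor were expressed in both groups. *Furin* was at 10.1, 9.89 and 10.1 FPKM with PBS and at 9.80, 12.2 and 9.58 FPKM with CTX (log2 difference 0.06, with a sign that changed in 2 of the alternatives). The differences of the related convertases *Pcsk6* and *Pcsk7* were 0.19 and -0.10, and that of *Pcsk5* was -0.42, with all CTX samples below all PBS samples (limma adjusted p = 0.203). *Mmp14*, a membrane protease reported to cut GFRAL, was at 21.8 ± 0.809 FPKM and 25.8 ± 3.21 FPKM (SD, n = 3; log2 difference 0.23). Of the 7 genes of this list 5 were tested and 0 were called, with a median difference of 0.06. With 0.961% of all tested genes called, this 0 says nothing particular to the list.

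None of the genes that act on p53 was called. Of 10 such genes, all tested, 0 passed in either direction, against 0.961% of all tested genes. A list of this size would seldom hold a called gene, so the 0 says nothing particular to it. The differences of the 10 ran from -0.12 to 0.87 with a median of 0.13. All CTX samples were above all PBS samples for 3, against 15.0% of all tested genes. *Trp53*, which encodes p53, was at 29.9, 30.5 and 29.8 FPKM in the PBS samples and at 33.7, 48.6 and 36.5 FPKM in the CTX samples. The CTX samples were the higher ones and replicate 2 was the highest, as for *Gdf15*, but the log2 difference of 0.38 (SE 0.14) did not pass the test (limma adjusted p = 0.217). The feedback inhibitors of p53, which are themselves its targets, differed more clearly. *Mdm2*, the ubiquitin ligase that removes p53, was at 12.1 ± 0.742 FPKM with PBS and 22.2 ± 3.08 FPKM with CTX (SD, n = 3), a log2 difference of 0.87 (SE 0.12, limma adjusted p = 0.022) that fell short of 2-fold. *Ppm1d*, a phosphatase that ends the damage signal, had a difference of 0.50 (SE 0.07, limma adjusted p = 0.031), also short of 2-fold. The damage kinases *Atm*, *Atr* and *Prkdc* had differences of -0.09, 0.06 and -0.12. The checkpoint kinases *Chek1* and *Chek2* had 0.24 and 0.15, the p53 inhibitor *Mdm4* had 0.11 and the damage adaptor *Trp53bp1* had -0.11. The signs of *Atm*, *Atr* and *Mdm4* changed in 1, 2 and 1 of the alternatives. Without CTX replicate 2 the difference of *Trp53* was 0.22 (limma adjusted p = 0.141).

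Among known targets of p53 17 rose. Of 38 listed genes, not counting *Gdf15*, 37 were tested, 17 were called higher (45.9%, against 0.802% of all tested genes) and 0 lower. Their median difference was 1.05, against -0.01 over all tested genes. All CTX samples were above all PBS samples for 32 of the 37, against 15.0% of all tested genes. The other 20 tested targets did not pass, 3 of them with negative differences. The count of 17 was the same without CTX replicate 2 and fell to 12 without PBS replicate 3. The list and the choice to set it beside *Gdf15* were made with earlier results of these data known.

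The targets with the largest rises included genes of apoptosis and of cell cycle arrest. *Pmaip1*, which encodes the pro-apoptotic NOXA, rose from 0.127, 0.124 and 0.117 FPKM to 3.98, 2.75 and 3.69 FPKM (log2 difference 3.99, SE 0.23, limma adjusted p = 1.2e-03). *Phlda3*, an inhibitor of AKT, rose from 1.51, 1.61 and 1.70 FPKM to 24.4, 18.0 and 23.0 FPKM (3.67, SE 0.13, limma adjusted p = 4.5e-04). *Eda2r*, the ectodysplasin A2 receptor, rose from 1.32, 1.26 and 1.18 FPKM to 14.2, 10.2 and 12.6 FPKM (3.18, SE 0.14, limma adjusted p = 7.9e-04). In all 3 the groups were far apart, and CTX replicate 2 was the lowest of the CTX samples. *Bbc3*, which encodes the pro-apoptotic PUMA, rose by 2.84 (SE 0.18), *Plk2*, a polo-like kinase, by 2.68 (SE 0.14), and *Cdkn1a*, which encodes the cell cycle inhibitor p21, by 2.65 (SE 0.18), with limma adjusted p-values of 1.5e-03, 8.2e-04 and 1.9e-03. *Gdf15* reached a CTX level near that of *Phlda3* from a lower PBS level.

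**Figure D2:**
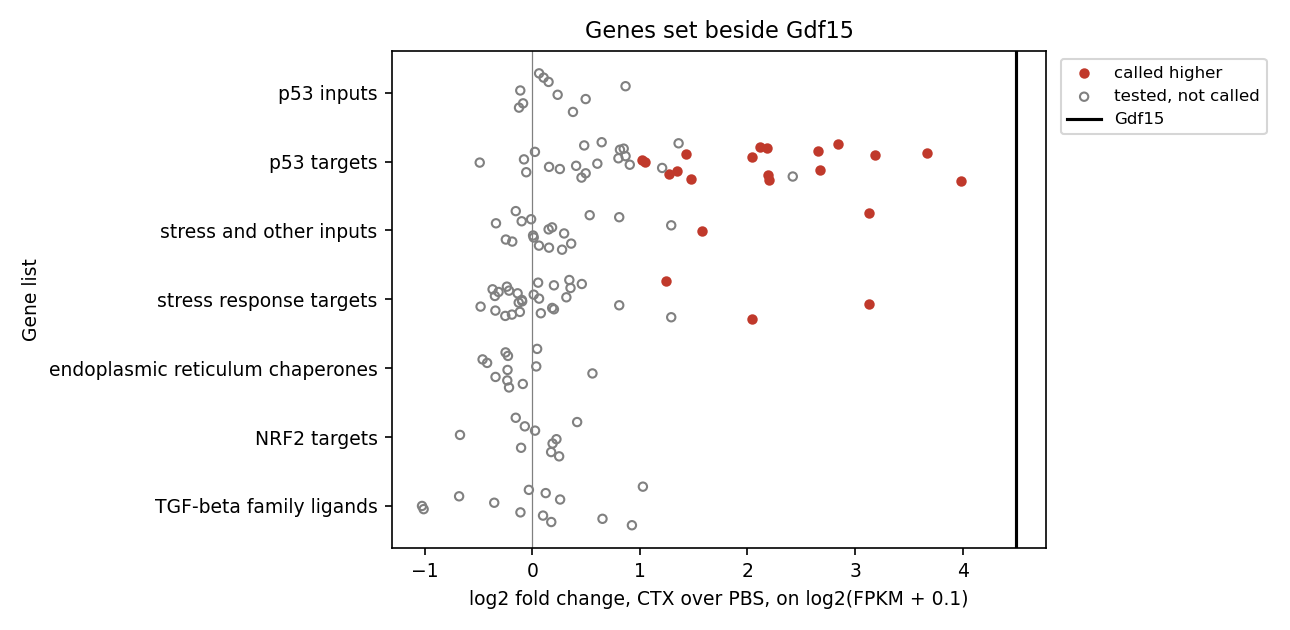
Fitted log2 fold change of CTX over PBS on the log2(FPKM + 0.1) scale for the tested genes of 7 lists, 1 point a gene, filled red where called higher, with the value of *Gdf15* (4.50) as a black line. The called genes are 17 p53 targets, 2 stress and other inputs and 3 stress response targets, some of them in 2 lists, and none reaches the line.

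Within the CTX group, however, *Gdf15* did not follow most of the called p53 targets from sample to sample. In 14 of the 17 called targets CTX replicate 2 was the lowest CTX sample, and in 2, *Ephx1* (an epoxide hydrolase) and *Perp* (a membrane protein of apoptosis and cell junctions), it was the highest. *Gdf15* was highest in that sample. The contrast covers called targets only, and a call favours genes whose samples lie close together within a group. Tested targets that were not called went both ways. *Plk3*, at 3.53, 7.99 and 6.86 FPKM in CTX replicates 1, 2 and 3, had the order of *Gdf15*. *Bax*, at 58.7, 54.4 and 63.9 FPKM, was lowest in replicate 2. On the log2(FPKM + 0.1) scale CTX replicate 2 was 0.62 above the mean of CTX replicates 1 and 3 for *Gdf15*. For the 17 targets the same quantity ran from -0.84 to 0.18 with a median of -0.39. *Cdkn1a* is an example, at 66.4, 42.7 and 66.8 FPKM in CTX replicates 1, 2 and 3. The ratio of *Gdf15* to *Cdkn1a* in FPKM was 0.0578, 0.0798 and 0.0824 with PBS and 0.174, 0.531 and 0.281 with CTX, so that the ratio spread more among the CTX samples than either gene did alone. Over all tested genes CTX replicate 2 was the lowest CTX sample for 37.6% and the highest for 41.3%. Among the 116 genes called higher, which include the 17 targets and *Gdf15*, it was the lowest for 56 (48.3%) and the highest for 40 (34.5%). This contrast rests on a single sample, the sample that stood apart, and with 3 samples a group it was not tested.

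**Figure D3:**
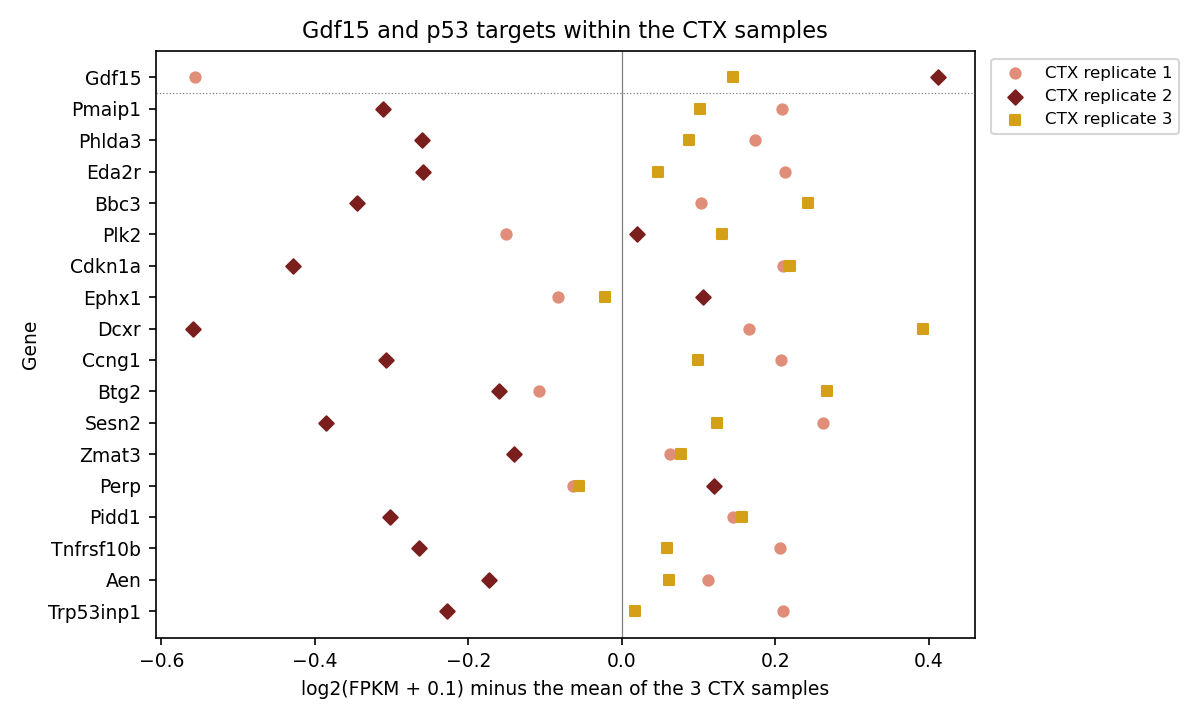
Level of *Gdf15* (top row) and of the 17 p53 targets called higher in each CTX sample, as log2(FPKM + 0.1) minus the mean of the 3 CTX samples. The dark diamonds (CTX replicate 2) lie to the left for 14 of the targets and farthest to the right for *Gdf15*, *Ephx1* and *Perp*.

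Of the other inputs to the gene, *Atf3* and *Egr1* rose. Of 20 stress and other factors, all tested, these 2 were called higher, against 0.802% of all tested genes, and 0 lower. Their median difference was 0.15 with a range from -0.34 to 3.13. All CTX samples were above all PBS samples for 9 and below for 3, against 15.0% and 14.1% of all tested genes. *Atf3*, a stress-induced factor of the ATF family, rose from 2.42, 3.67 and 2.67 FPKM to 27.1, 18.8 and 34.1 FPKM (log2 difference 3.13, SE 0.25, limma adjusted p = 3.4e-03). The groups were far apart, and replicate 2 was the lowest CTX sample. *Egr1* was already abundant with PBS, at 310, 317 and 277 FPKM, and rose to 902, 855 and 939 FPKM (1.58, SE 0.09, limma adjusted p = 1.2e-03). Its CTX samples lay close together, unlike those of *Gdf15*.

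The factors at the centre of the integrated stress response had positive differences that fell short of 2-fold. *Atf4* was at 99.5, 103 and 113 FPKM with PBS and 150, 144 and 163 FPKM with CTX (log2 difference 0.53, SE 0.08, limma adjusted p = 0.035). *Ddit3*, which encodes CHOP, was at 8.55, 8.02 and 7.32 FPKM with PBS and 13.1, 12.8 and 16.4 FPKM with CTX (0.81, SE 0.12, limma adjusted p = 0.031). In both the groups did not overlap. ATF4 is controlled mainly at translation, which RNA levels do not show. The kinases that start the response had differences of -0.19 for *Eif2ak3* (PERK, misfolded protein), 0.15 for *Eif2ak4* (GCN2, missing amino acids), 0.15 for *Eif2ak2* (PKR, double-stranded RNA) and -0.15 for *Eif2ak1* (HRI, low heme). None of the 4 passed the test.

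*Nupr1*, a stress-induced chromatin protein that acts with ATF4, was among the inputs whose CTX samples ranked as those of *Gdf15* did, with a far wider spread. It was at 16.3, 19.5 and 19.2 FPKM with PBS and at 20.4, 108 and 41.1 FPKM with CTX, and did not pass the test (log2 difference 1.29, SE 0.56, limma adjusted p = 0.268). In CTX replicate 1 *Gdf15* was 17.4 times its PBS mean, and *Nupr1* was barely above the PBS samples. The part of *Nupr1* in the level of *Gdf15* was not tested. Without CTX replicate 2 the difference of *Nupr1* was 0.66 (limma adjusted p = 0.265). *Cebpb*, a partner of ATF4 and CHOP, was at 161, 76.0 and 158 FPKM in the CTX samples against a PBS mean of 124 FPKM, a difference of 0.01 whose sign changed in 4 of the alternatives and which was 0.37 without CTX replicate 2 (limma adjusted p = 0.057). The remaining factors were *Xbp1*, *Atf6* and *Ern1* of the unfolded protein response (0.06, -0.01 and -0.34), *Nfe2l2*, which encodes NRF2 (0.18), the hypoxia factor *Hif1a* (-0.25), *Rela* and *Nfkb1* of NF-κB (0.36 and 0.28), *Sp1* (0.30) and the lysosomal stress factors *Tfeb* and *Tfe3* (0.01 and -0.10). None of these was called. The signs of *Atf6*, *Tfeb* and *Xbp1* also changed in some alternatives.

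Of the targets of the integrated stress response, 3 passed the test. Of 36 listed genes 35 were in the table and 30 were tested, 3 were called higher, a share above the 0.802% of all tested genes, and 0 lower, with 16 positive and 14 negative differences and a median of 0.03, against -0.01 over all tested genes. All CTX samples were above all PBS samples for 8 of the 30 and below for 6, against 15.0% and 14.1% of all tested genes. The 3 called were *Atf3*, *Sesn2*, a leucine-sensing stress protein that is also a p53 target and rose by 2.04 (SE 0.17, limma adjusted p = 4.0e-03), and *Ppp1r15a*, which encodes GADD34, the phosphatase subunit that ends the response, and rose by 1.25 (SE 0.07, limma adjusted p = 1.0e-03). The count of 3 was the same without CTX replicate 2. The genes of amino acid supply are those for which ATF4 is best known: *Asns* (asparagine synthetase) had a difference of 0.34, *Psat1* 0.18, *Phgdh* 0.20, *Shmt2* -0.34 and *Mthfd2* -0.24, and the ATF4 and CHOP target *Trib3* had -0.31. *Cth*, of cysteine synthesis, had 0.46 and the amino acid transporter *Slc7a5* had 0.36 (limma adjusted p = 0.126 and 0.059), both with all CTX samples above all PBS samples. None of these 8, which were picked for their known roles after their values were seen, passed the test.

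Other stress programs were also counted. Of 12 chaperones and partners of the endoplasmic reticulum, which the unfolded protein response raises, 0 were called, 9 had negative differences, and the median was -0.23, with all CTX samples below all PBS samples for 7, against 14.1% of all tested genes. Of 11 targets of NRF2, the factor of the oxidative stress response, 10 were tested and 0 were called, with a median of 0.10 and a range from -0.67 to 0.42. With 0.961% of all tested genes called in either direction, lists of this size would seldom hold a called gene, so these counts of 0 say nothing particular to the lists.

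The genes with the profile nearest to that of *Gdf15* were found by the root mean square difference over the 6 samples of log2(FPKM + 0.1), after each gene was centred on its own PBS mean. Among 12001 protein-coding genes the median of this measure was 3.20. The 8 nearest genes were *Pmaip1* (0.58), *Phlda3* (0.72), *Svop* (0.91), *Inka2* (0.92), *Klf4* (0.95), *Eda2r* (1.03), *Atf3* (1.08) and *Egr2* (1.11), followed by *Notch3* (1.16). Because the measure uses the size of the change, it picks genes with large rises, and all 8 were among those called higher. *Klf4* and *Egr2* are zinc-finger transcription factors, *Inka2* encodes an inhibitor of the kinase PAK4, and *Svop* encodes a transporter-like vesicle protein.

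**Figure D4:**
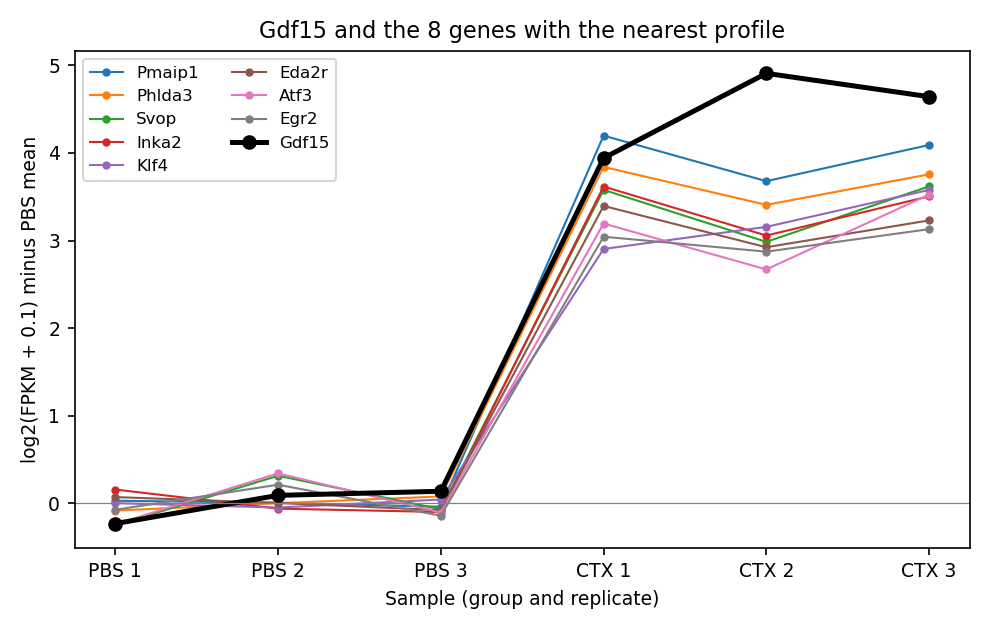
Level of *Gdf15* (thick black line) and of its 8 nearest genes in each sample, as log2(FPKM + 0.1) minus the gene's own PBS mean. All 9 genes lie at most 0.34 from 0 in the PBS samples, and in CTX replicates 2 and 3 *Gdf15* lies above all 8, while in CTX replicate 1 *Pmaip1* lies above it.

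These genes shared the step between the groups with *Gdf15* more than the order within the CTX group. CTX replicate 2 was the lowest CTX sample for 7 of the 8, and for *Klf4* it was replicate 1, as for *Gdf15*. *Klf4* was at 2.32, 2.24 and 2.39 FPKM with PBS and at 18.0, 21.4 and 28.7 FPKM with CTX. *Svop* was at 0, 0.0479 and 0.0136 FPKM with PBS, from 0, 4 and 1 reads, so its place in the order rests on few reads. *Inka2* was at 0.282, 0.228 and 0.220 FPKM with PBS and at 4.10, 2.75 and 3.78 FPKM with CTX. RefSeq promoters, 11 in all, were found for 6 of the 8 genes. Over all RefSeq mouse promoters 8.36% hold a p53 half-site, so a match in 1 gene says nothing particular to this set. Of the 6 genes 1, *Inka2*, held a p53 half-site, shown here in capitals:
Inka2, chr3:105705377-105705386: gtctgcccGGGCTTGTCTgccagcag

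A single gene near *Gdf15* on the chromosome was called. Within 250 kb on either side lie 35 genes of the table, of which 23 were tested, with a median difference of 0.09. Of the 23, 1 was called higher and 0 lower, against 0.802% and 0.159% of all tested genes. All CTX samples were above all PBS samples for 4 and below for 1, against 15.0% and 14.1% of all tested genes. The called gene was *Jund*, an AP-1 subunit 66.5 kb away, at 202, 208 and 224 FPKM with PBS and 428, 480 and 522 FPKM with CTX (log2 difference 1.17, SE 0.10, limma adjusted p = 4.1e-03). Apart from it no difference exceeded 0.37, which was that of *Ssbp4*, 20.5 kb away (limma adjusted p = 0.115). *Pgpep1*, the nearest tested gene at 14.0 kb, had 0.14. The lowest difference, -2.01, was that of *Comp*, a cartilage matrix protein, which was at 38.2, 1.14 and 18.2 FPKM in the CTX samples against a PBS mean of 38.3 FPKM and did not pass the test (limma adjusted p = 0.385). *Comp* was lowest in the sample in which *Gdf15* was highest, and without that sample its difference was -0.53 (limma adjusted p = 0.360).

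**Figure D5:**
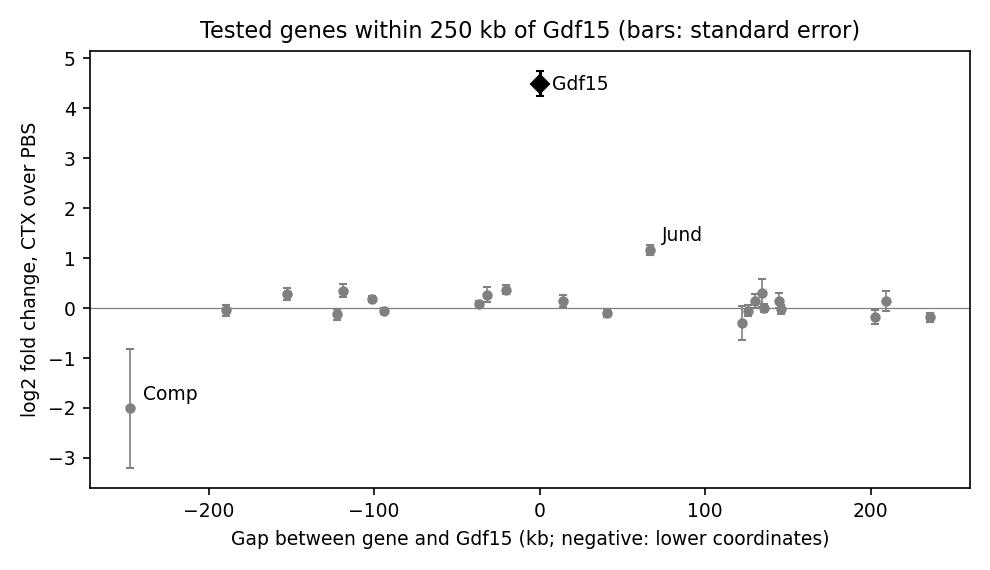
Fitted log2 fold change of CTX over PBS (bars: standard error) of *Gdf15* and of the 23 tested genes within 250 kb, against the gap to *Gdf15* in kb. *Gdf15* stands at 4.50, *Jund* at 1.17 and the others at or below 0.37, with *Comp* at -2.01 and a wide error.

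Markers of other cells that a GC preparation could hold moved in some samples. The 6 leukocyte markers, which include *Lyz2* and *Cd68* of macrophages, a known source of GDF15, summed to between 18.5 and 21.9 FPKM in the PBS samples and to 32.3, 62.3 and 22.4 FPKM in CTX replicates 1, 2 and 3. Of these 6, 4 were tested and 0 were called, against 0.961% of all tested genes. All CTX samples were above all PBS samples for 2 of the 4, against 15.0% of all tested genes. The defining leukocyte marker *Ptprc* was at most 0.0983 FPKM, and no marker was at 0 in all samples. In the same CTX replicates 1, 2 and 3 *Gdf15* was at 11.5, 22.6 and 18.8 FPKM. Replicate 2 was thus the highest for both, and replicates 1 and 3 stood in opposite order. The 4 theca markers summed to between 146 and 150 FPKM with PBS, most of it *Lhcgr*. In CTX replicates 1, 2 and 3 they summed to 162, 9.50 and 69.8 FPKM, the reverse of the order of *Gdf15*. *Lhcgr* and *Cyp17a1* had that order. *Ptch1*, at 4.11, 6.55 and 4.02 FPKM, and *Gli1*, at 0.155, 0.226 and 0.246 FPKM, did not, so the sum does not speak for the whole list. The oocyte markers summed to between 17.8 and 36.2 FPKM with PBS and between 26.3 and 49.1 FPKM with CTX, the stroma markers to between 10.3 and 11.3 and between 4.09 and 20.6 FPKM, the red cell markers to between 299 and 429 and between 130 and 467 FPKM, and the endothelial markers to between 4.41 and 5.38 and between 1.78 and 4.05 FPKM. None of the markers was called, which with 0.961% of all tested genes called says nothing particular to them. The part of these cells in the level of *Gdf15* was not tested, and in bulk samples a change in the number of cells of a type and in the RNA per cell cannot be told apart.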

How the data were processed

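RNA of 6 samples of GCs (3 PBS, 3 CTX) had been sequenced, and the authors deposited FPKM values for 54532 genes. The submitters' processing notes name CASAVA 1.8, fastp, HISAT2 2.0.5, featureCounts 1.5.0-p3, DESeq2 1.20.0 and mm10, and strandedness is not given in the sources used here. The deposited table also holds the authors' group means, log2 fold changes and p-values, which were not used. All values were whole multiples of what 1 read is worth (tolerance 0.05 read), which gave the reads. Samples were grouped by their labels, and no batch is given there.

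Levels were taken as log2(FPKM + 0.1). Genes with a mean of at least 0.5 FPKM (14463) were fitted with limma 3.58.1 (R 4.3.3; lmFit and eBayes with trend, 2-sided), with Benjamini-Hochberg adjustment over all of them. The fit was tested on data simulated from the PBS means with a single spread for both groups. That setting lacks the wider spread of the CTX samples, so it does not check the calls under that spread. Calls needed an adjusted p below 0.05 and over 2-fold. Intervals are exact Poisson, and sites were searched with Python 3.11.15. For a symbol on more than 1 row (102 symbols) the row with the highest mean was used. Of the 36 stress response targets, 1 symbol (*Mars1*) was not matched. *Gdf15*, the gene lists and the tests were chosen with earlier results of these data known. Named are *Gdf15*, every gene of the receptor and processing, p53 input and stress input lists, up to 6 called genes of each other list by size of change, tested genes within 250 kb (here the called, extreme and nearest ones) and the 8 genes of nearest profile. Other genes were named for their place in an order, a site, a marker list or a known role, after their values were seen. P-values measure the spread between pools of 3 mice. Alternatives were other pseudocounts, filters, scalings, weights, a voom fit of the rebuilt reads, a replicate block and each sample left out.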

Additional observations from a re-analysis of the deposited data

How the results depend on the processing

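The log2 difference of *Gdf15* was positive in all alternatives run. It was 3.44 with a pseudocount of 1, and between 4.29 (without CTX replicate 2) and 4.78 (without CTX replicate 1) with a sample left out. The genes called lower were 7 with a mean of at least 5 FPKM. Sample weights (arrayWeights, whose estimate did not converge) called 366 genes higher and 291 lower, and 5 stress response targets higher. With a sample left out, between 57 (without PBS replicate 3) and 143 (without CTX replicate 2) genes were called higher and between 1 (without PBS replicate 1 or 3) and 70 (without CTX replicate 1) lower, and the count was also over 1.5 times from the full one without PBS replicate 1 (67 higher), PBS replicate 2 (63 higher, 2 lower), CTX replicate 2 (58 lower) and CTX replicate 3 (69 higher, 14 lower). In these fits the p53 targets called higher were between 12 and 17 and the stress response targets 3. A replicate block called 48 genes higher and 2 lower, with 12 p53 targets and 2 stress response targets higher. The correlations of deviations of same-numbered samples were 0.06, 0.02 and 0.01, so the numbers give no pairing. Under the block *Atf3* was no longer called (limma adjusted p = 0.053). Of the 25 called genes named or counted in the lists, 17 were called under all alternatives that tested them and 0 changed sign. The called p53 targets *Trp53inp1*, *Tnfrsf10b*, *Pidd1*, *Aen*, *Dcxr* and *Zmat3* lost their call in 8, 5, 4, 4, 3 and 1 alternatives, and *Svop* in 5. Median-of-ratios scaling left the deposited values practically unchanged, so its equal fold changes and calls are no separate check. Depth limits the PBS level of *Gdf15*, which rests on 18 to 24 reads a sample.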

Other observations

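The order of the CTX samples seen for *Gdf15*, replicate 2 above 3 above 1, was looked for among all genes called higher, after the values had been seen. It was held by 34 of the 116 genes (29.3%), *Gdf15* included. Among the 116, CTX replicate 3 was the highest sample for 46, replicate 2 for 40 and replicate 1 for 30, and of the 17 called p53 targets 2, *Ephx1* and *Perp*, had the order of *Gdf15* in full. Others with this order were *Cxcl1*, a neutrophil chemokine, at 31.3, 39.0 and 32.5 FPKM in CTX replicates 1, 2 and 3 against a PBS mean of 5.79 FPKM, and *Klf10*, *Edn1*, *Maff*, *Irs2*, *Cyr61* and *Pim1*. These genes are some of the 34 and were named after their values were seen, and no test was run on the order.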
